A study of Mus musculus with 3 samples.

Results

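The 10 genes described here belong to the Notch pathway and were followed through single-nucleus chromatin accessibility profiles of mouse embryos: the receptors Notch1, Notch2 and Notch3, the ligands Dll1, Dll3, Dll4 and Jag1, and the targets Hes1, Hes5 and Hey1. These 10 genes were listed by name among 21593 genes counted, and all 10 were among the 19688 genes with enough fragments to be tested. Nuclei came from frozen sections of wild-type (WT) C57BL/6JRj embryos of 3 stages, namely E12.5, E13.5 and E15.5 (days of embryonic development), with no treatment and with 1 library per stage, so that stage and library cannot be told apart. The embryos were littermates of those used for the study's spatial assay, their sex was not determined, and nuclei sorted on a DNA dye were pooled over several sections per stage, so that 1 library stands for 1 stage with no biological replicate. The assay, snATAC-seq, lets the transposase Tn5 cut open DNA inside nuclei that each carry a barcode, and a gene's level is the number of unique fragments over its body and the 2 kb upstream, scaled to 1000000 such fragments over all genes (counts per 1000000, CPM). Levels describe open chromatin and not RNA.

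Notch receptors are cleaved when a ligand on a neighbouring cell binds them, and the freed intracellular part joins the DNA-binding protein RBPJ in the nucleus to switch on genes such as Hes1, Hes5 and Hey1. These targets are repressors that keep neural progenitors from differentiating by silencing proneural genes, while cells that become neurons raise Delta ligands and signal to their neighbours. The pathway also acts in blood vessels, muscle precursors, skeleton and epithelia.

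Nuclei were compared through the clusters that the authors deposited, leaving out the shallow clusters 2 and 4, which gave 1450 of 1879 nuclei in 10 clusters. Markers that hold no Notch gene named cluster 9 neural progenitor-like (6 of 6 raised, with a summed level of 554 CPM against 164 in the other clusters), clusters 0 and 6 neuron-like (6 and 5 of 6), cluster 10 muscle-like (6 of 6), cluster 1 mesenchyme-like (6 of 6) and clusters 5 and 11 erythroid-like (7 and 6 of 7). Cluster 6 also had 3 of 6 progenitor markers raised, and cluster 9 had 0 of 6 neuron markers raised, with the neuron list at 424 CPM there against 683 CPM in cluster 0 and 604 CPM in cluster 6. Clusters 7 and 8 mixed markers of several types and are called by number. Cluster 3 had 6 of 6 mesenchyme markers raised, with a summed level of 443 CPM against 268 in the other clusters, but its leading genes by fold included the olfactory receptor genes Olfr1254, Olfr1309, Olfr187 and Olfr273, so it too is called by number. Sums of at least 10 nuclei gave 24 combinations of cluster and library, with 344651 to 8625628 gene fragments each. Cluster 9 held 11, 50 and 20 nuclei in stage order, cluster 0 held 11, 87 and 172, and cluster 6 held 76 at E13.5 and 50 at E15.5. Between libraries, 1 barcode sequence was shared, and 175 barcodes within libraries, 37 of them in these clusters, shared many identical fragments with another barcode.

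The promoter of Hes5 is shown first because it had the highest ratio of its top cluster to the median cluster among the 10 promoters, 7.38, and holds the letters that RBPJ binds. Of the 10 genes, 8 had a promoter in the RefSeq table for GRCm38.p6, the assembly that mm10 names. The targets Hes1 and Hey1 had none there, so their promoters were not searched. Promoters of 300 bases, most of them before the start, were searched on both strands for TGGGAA, the core of the RBPJ site, for CAGCTG, an E-box of the kind bound by proneural and myogenic factors, and for CACGTG, another E-box. TGGGAA was in 25.6% of the 32851 promoters in the table, CAGCTG in 16.3% and CACGTG in 7.15%. Among the 9 promoter entries of these 8 genes TGGGAA was found upstream of Hes5 and in no other entry, at 2 places that begin 226 and 82 bases before the start. CAGCTG was found once each before Jag1, Dll3 and 1 of the 2 Dll1 starts, and CACGTG was in none of these 300-base windows. The bases before the Hes5 start, chr4:154960673-154960922 on the plus strand, read as follows, with TGGGAA and its reverse complement in capitals.
Hes5 upstream: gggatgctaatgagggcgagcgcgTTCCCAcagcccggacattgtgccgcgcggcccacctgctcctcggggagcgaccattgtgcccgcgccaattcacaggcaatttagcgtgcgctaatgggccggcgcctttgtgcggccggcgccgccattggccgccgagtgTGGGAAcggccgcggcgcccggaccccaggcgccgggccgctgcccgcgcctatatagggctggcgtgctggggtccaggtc
A match of letters is a description of the sequence and not a measured binding site.

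**Figure D1:**
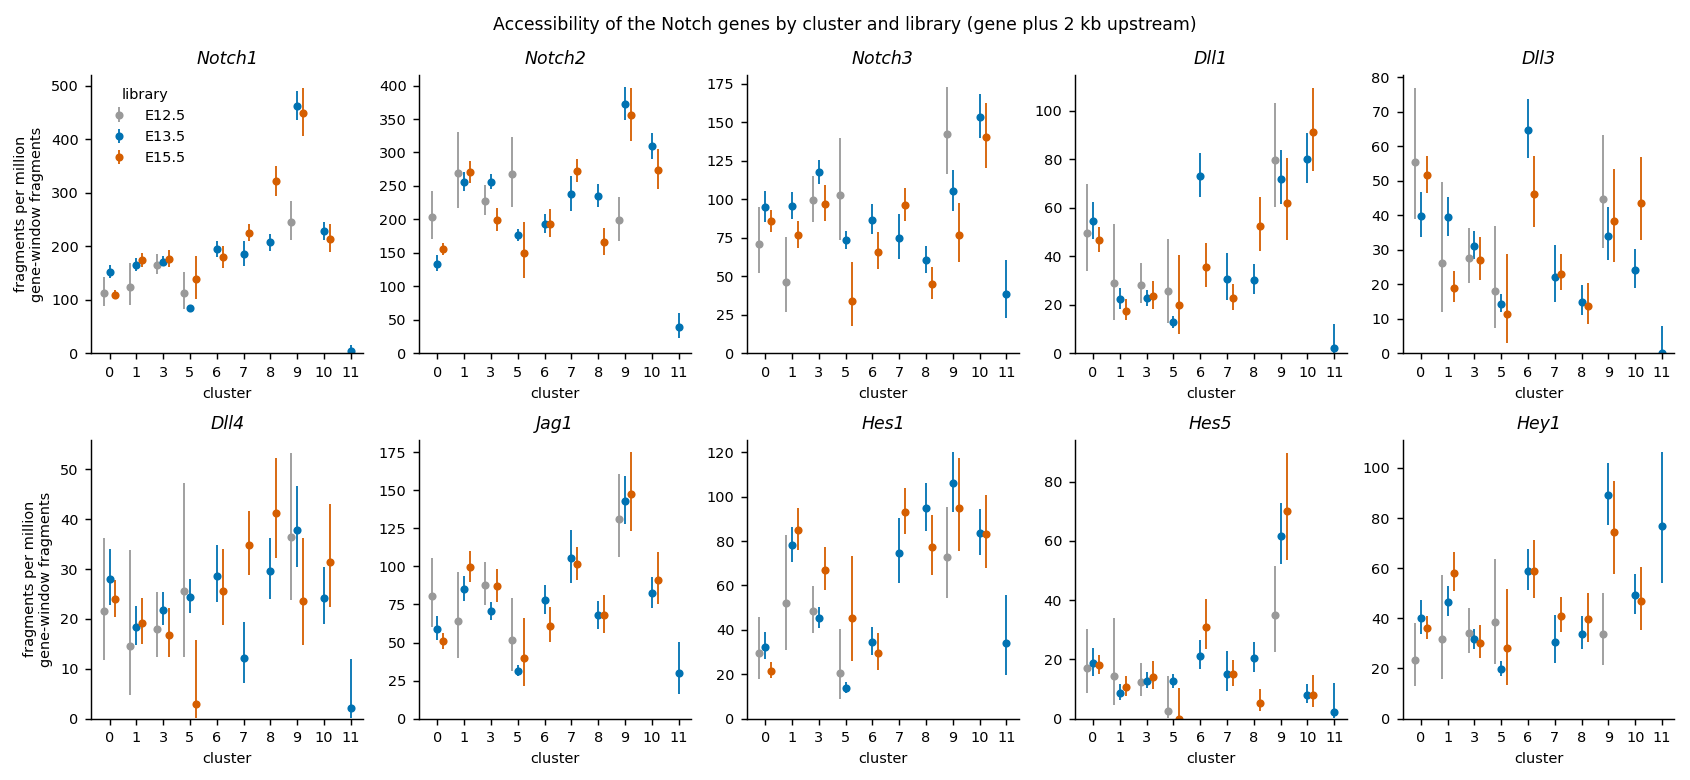
Levels of the 10 genes, in CPM of gene-window fragments, against cluster number, for E12.5, E13.5 and E15.5. Points are sums of at least 10 nuclei and bars are exact 95% Poisson intervals, which cover counting error only. Notch1, Jag1 and Hes5 were highest in cluster 9, Dll1 in clusters 10 and 9, and Dll3 in clusters 6 and 0.

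The first question was whether the pathway's genes differed in accessibility between the 10 clusters. All 10 did (edgeR quasi-likelihood test with the library as a block, Benjamini-Hochberg adjusted over all genes), where 62.3% of all genes tested differed, so the share alone sets these genes little apart. The adjusted p ran from 1.43e-09 for Notch1 to 0.0396 for Dll4. The clusters are the authors' and rest at least in part on these same nuclei, so these tests describe the clusters and are no independent evidence that they exist. Without the E13.5 library 5 of the 10 still differed, among 11.98% of all genes.

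Among the receptors, Notch1 (chr2:26457903-26516663 in mm10, minus strand) had its highest mean level in cluster 9, at 246, 463 and 450 CPM in stage order. In the neuron-like cluster 0 it was at 113, 152 and 109 CPM, and in cluster 6 at 194 and 179 CPM (E13.5 and E15.5). Every cluster 9 library thus lay above every library of clusters 0 and 6, although the E12.5 value of cluster 9 lay below the 321 CPM of cluster 8 at E15.5. The order below cluster 9 was 8, 10, 7, 6, 3, 1, 0, 5 and 11, and of these neighbours only 6 and 3, and 5 and 11, had ranges over libraries that did not overlap. In the erythroid-like cluster 11, 2 fragments lay at Notch1 at E13.5 (4.28 CPM), among 467797 gene fragments of 35 shallow nuclei.

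Notch2 (chr3:98013527-98150361, plus strand), the largest of the windows at 139 kb, varied less. It was at 199, 372 and 355 CPM in cluster 9 and at 309 and 274 CPM in cluster 10, and the ranges of these overlapped. Its E12.5 level in cluster 9 was no higher than the 204 CPM of cluster 0. Notch3 (chr17:32120820-32166852, minus strand), a receptor known from the smooth muscle of vessels, was highest in the muscle-like cluster 10, at 153 CPM at E13.5 and 140 CPM at E15.5. The markers that named cluster 10 are those of skeletal muscle and not of smooth muscle. In cluster 9 it was at 143, 105 and 76.7 CPM, which overlapped the range of cluster 10, and in cluster 8 it was at 60.3 and 44.9 CPM.

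The ligands split into different patterns. Dll1 (chr17:15367354-15376872, minus strand), the main Delta ligand of neural and somitic tissue, was at 80.01 and 91.1 CPM in cluster 10, above the 79.7, 71.98 and 62.0 CPM of cluster 9 by a small margin, and at 49.4, 54.4 and 46.6 CPM in cluster 0. In cluster 6 it was at 73.0 CPM at E13.5 and 35.5 CPM at E15.5. Mesenchyme-like cluster 1 had 29.0, 22.2 and 17.6 CPM, below all of the progenitor-like and neuron-like values. Dll3 (chr7:28293553-28302238, minus strand), a Delta relative that acts inside the cell and dampens Notch signalling, was highest in neuron-like nuclei instead, at 64.7 and 46.1 CPM in cluster 6 and 55.6, 39.8 and 51.6 CPM in cluster 0. Cluster 9 followed at 44.8, 34.1 and 38.4 CPM, overlapping cluster 0.

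Jag1 (chr2:137081456-137116644, minus strand), a ligand of the Jagged family, was the ligand that stood highest in cluster 9, at 131, 143 and 148 CPM. All 3 values lay above those of every other cluster, the next being 105 and 102 CPM in cluster 7, which mixed epithelial, chondrocyte and glial markers. Dll4 (chr2:119325784-119335962, plus strand), the ligand of sprouting vessels, was low, with means over libraries from 17.4 to 35.5 CPM outside cluster 11. Its single sums there ran from 2.82 CPM, 1 fragment in cluster 5 at E15.5, to 41.3 CPM in cluster 8. Its highest mean was in cluster 8, which mixed liver, white blood and endothelial markers, at 29.7 and 41.3 CPM, and that range overlapped those of clusters 9, 10 and 7.

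The targets were not alike. Hes5 (chr4:154960923-154962371, plus strand), whose window overlaps that of Pank4 so that their fragments cannot be told apart there, was at 35.0, 61.8 and 69.9 CPM in cluster 9, against 21.2 and 31.1 CPM in cluster 6, 17.0, 18.7 and 18.04 CPM in cluster 0, and 7.94 and 8.06 CPM in cluster 10. Its cluster 9 mean was 4.28 times the median cluster, the highest such ratio of the 10 genes. Hes1 (chr16:30064384-30067796, plus strand) was high in more clusters: cluster 9 had 72.7, 106 and 94.7 CPM, and clusters 8, 7, 10 and 1 had means from 71.8 to 86.2 CPM with overlapping ranges. Clusters 0 and 6 were among the lowest for Hes1, at 21.6 to 34.4 CPM over their 5 sums. Hey1 (chr3:8663359-8667256, minus strand), a target known from vessels and heart, was at 33.6, 89.0 and 74.4 CPM in cluster 9 and at 77.0 CPM in the single cluster 11 sum. That sum held 36 Hey1 fragments, and 37.5% of the fragments of these nuclei lay in promoter windows against 12.3% in cluster 9 at E13.5. Whether this share accounts for the Hey1 level was not tested.

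Set per kilobase of window, the cluster 9 mean level was 16.8 CPM per kb for Hes1, 16.1 for Hes5 and 11.1 for Hey1. Notch1 and Dll1 were at 6.36 and 6.19 CPM per kb, and Notch2 and Notch3 at 2.22 and 2.25. This scale depends on window length, which ran from 3.45 kb for Hes5 to 139 kb for Notch2. In promoter windows of equal length at the principal transcript starts (described below), scaled to promoter fragments, these genes differed less. Cluster 9 means there were 167 CPM per kb for Hes5, 157 for Jag1, 151 for Hes1 and 136 for Hey1. Notch1 was at 120, Dll1 at 101, Notch2 at 100 and Notch3 at 58.7.

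The design's central contrast set the progenitor-like cluster 9 against the mean of the neuron-like clusters 0 and 6. Of the 10 members, 5 were higher in cluster 9, where 1.69% of all genes were, and 0 of 10 were lower, where 0.635% of all genes were. The members were chosen with earlier results of these data known, and the clusters rest at least in part on these nuclei. Hes5 was itself among the leading genes of cluster 9 by fold. The count is therefore a description and no independent evidence. Hes1 had the largest log2 change, 1.71 ± 0.22 (SE, adjusted p 8.57e-06 in edgeR), followed by Hes5 at 1.48 ± 0.28 (0.00113), Notch1 at 1.38 ± 0.18 (1.04e-05), Jag1 at 1.11 ± 0.18 (0.000233) and Notch2 at 0.83 ± 0.19 (0.0106). The Delta ligands did not pass: Dll1 was at 0.37 ± 0.23, Dll4 at 0.37 ± 0.29 and Dll3 at -0.48 ± 0.25, on the side of the neurons (adjusted p 0.402). Notch3 at 0.36 ± 0.21 and Hey1 at 0.67 ± 0.22 did not pass either. The median log2 change was 0.75 over the 10 genes and -0.0042 over all genes tested.

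The ratio of cluster 9 to clusters 0 and 6 pooled was above 1 in all 3 libraries for Notch1, Notch2, Dll1, Jag1, Hes1 and Hes5. For Notch1 it was, in stage order, 1.77 (exact 95% interval 1.40 to 2.24), 2.68 (2.46 to 2.91) and 3.63 (3.23 to 4.08). For Hes1 it was 2.79 (1.69 to 4.73), 3.18 (2.65 to 3.81) and 4.08 (3.13 to 5.29), and for Hes5 2.30 (1.15 to 4.78), 3.10 (2.44 to 3.94) and 3.37 (2.48 to 4.52). For Dll1 it was 1.497 (1.004 to 2.24), 1.13 (0.944 to 1.36) and 1.40 (1.04 to 1.86), and the E13.5 interval included 1. Dll3 was below 1 in all 3, at 0.735, 0.655 and 0.760, and only the E13.5 interval excluded 1. At E12.5, with 11 nuclei in cluster 9 and 5 in cluster 6, Notch2 was at 1.04 (0.826 to 1.30) and Hey1 at 0.936 (0.529 to 1.63), so neither difference was detectable there. These calls rested on both larger libraries: without E13.5 only Hes1 passed, where 0.0426% of all genes were higher, and without E15.5 only Hes1 and Notch1, where 0.0966% were. Without E12.5 Hey1 passed as well, at 0.83, and over the gene body without the 2 kb upstream Hes5 did not pass, at 0.97. The median log2 change of the members was 0.63 without E13.5 and 0.66 without E15.5, beside 0.75 with all libraries.

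Narrower windows at the promoter, from 1000 bp before to 100 bp after the start, asked whether the start sites themselves differed. At the gene start of the annotation, 5 of 10 members were higher in cluster 9 (3.49% of all genes were, and 1.09% were lower), namely Hes1 at a log2 change of 2.04 ± 0.22, Hes5 at 2.01 ± 0.23, Notch3 at 1.52 ± 0.35, Jag1 at 1.34 ± 0.21 and Hey1 at 0.88 ± 0.20. The annotated gene start of Notch1 lies 12841 bp before the start of its principal transcript, and that of Hes1 and Dll1 956 and 896 bp before theirs. At the principal transcript starts, a choice made after seeing the files, 6 of 10 were higher (3.56% of all genes were, and 1.27% were lower). Notch1 was then at 2.31 ± 0.26 (adjusted p 3.78e-12), where at the outer start it had been at 0.37 ± 0.73. Hes1 was at 2.36 ± 0.24, Hes5 at 1.98 ± 0.23, Notch3 at 1.49 ± 0.35, Jag1 at 1.32 ± 0.21 and Hey1 at 0.85 ± 0.20. Without E15.5, 3 of these passed (Notch1, Hes1 and Hes5), where 1.197% of all genes were higher, and at gene starts 2 (Hes1 and Hes5), where 1.035% were. Without E13.5 the counts were 4 and 3, beside 1.07% and 0.969%. Over all clusters the promoters of all 10 differed, with 66.4% of all genes at gene starts and 67.6% at principal starts.

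Notch2 and Notch3 thus changed places between the measures. Notch2 passed over its gene window and not at its promoter (0.50 ± 0.23, adjusted p 0.247), and Notch3 passed at its promoter and not over its window. In principal promoter CPM, scaled to promoter fragments, Notch3 was at 58.1, 68.4 and 67.1 in cluster 9 and at 17.9 and 18.8 in cluster 6, but at 70.5, 27.8 and 22.6 in cluster 0. The E12.5 value of cluster 0 lay above all 3 values of cluster 9. Whether the promoter and gene window differ in their contrast was not tested. The Hes5 promoter was at 108, 199 and 244 promoter CPM in cluster 9, against 50.4, 49.7 and 42.5 in cluster 0, 53.8 and 63.6 in cluster 6 and 21.3 and 12.8 in cluster 10, and the groups did not overlap. The Notch1 promoter was at 91.3, 143 and 163 in cluster 9 and as high in the muscle-like cluster 10, at 120 and 146, while cluster 0 had 10.1, 27.8 and 19.9.

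**Figure D2:**
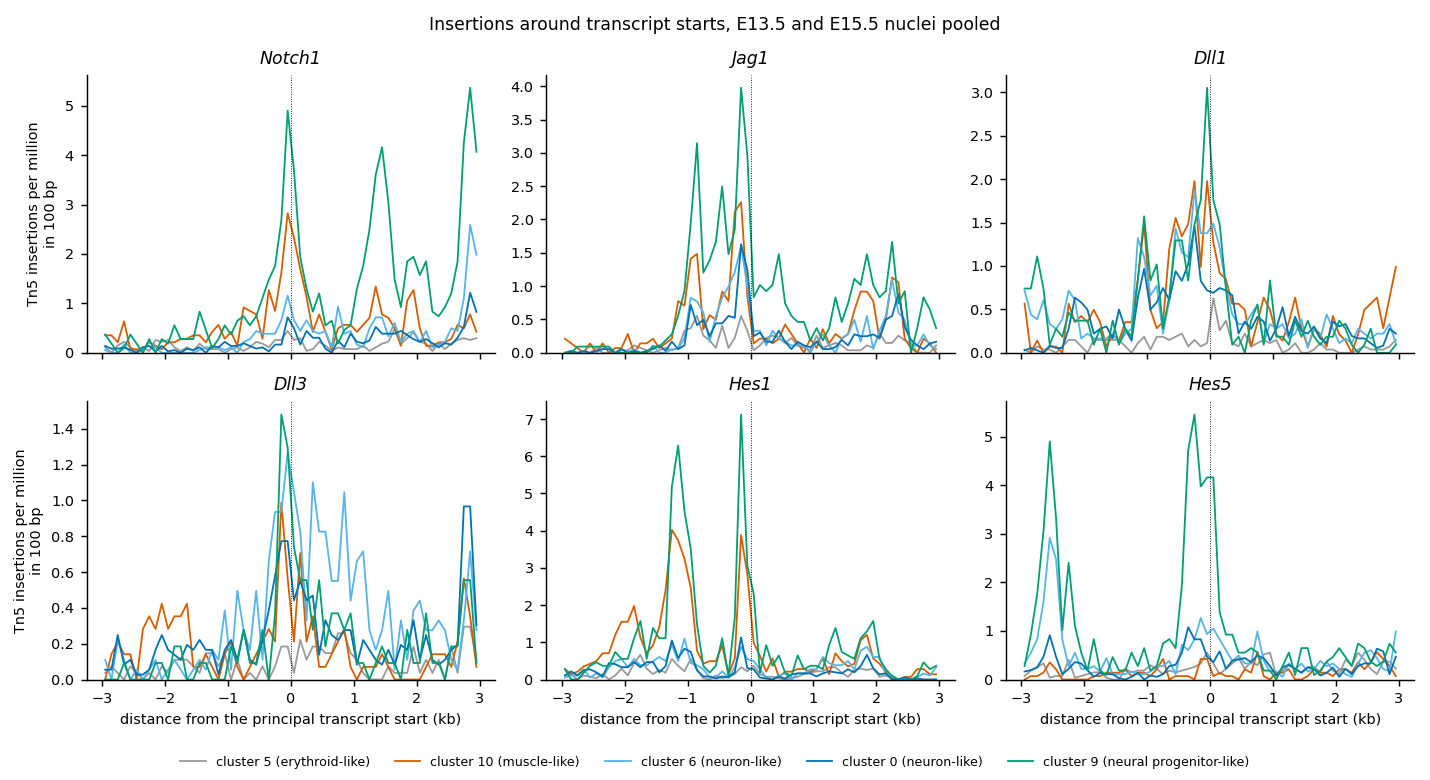
Tn5 insertions, in CPM of all insertions of the cluster, in bins of 100 bp against distance from the principal transcript start, for 6 genes and 5 clusters, E13.5 and E15.5 nuclei pooled. Within 500 bp of the start, cluster 9 is the highest of the 5 for Notch1, Dll1 (12.67 CPM against 11.93 in cluster 10), Jag1, Hes1 and Hes5, and cluster 6 for Dll3, with second peaks in the bins at -1150 bp of Hes1, -2550 bp of Hes5 and 1450 and 2850 bp of Notch1. The Hes1 bin at -1150 bp lies just before the annotated gene start, which is 956 bp before the principal start.

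Within these loci, insertions gathered at the start and at a few places beside it. At Hes1, cluster 9 had 7.12 CPM of insertions (scaled to all insertions of the cluster, as for all values here) in the 100 bp bin centred at -150 bp and 6.29 in the bin at -1150 bp, and cluster 10 had 3.88 and 3.74, while cluster 0 had 1.13 and 0.580. The Hes1 bin at -1150 bp lies just before the annotated gene start, which is 956 bp before the principal start. At Hes5 the bin at -250 bp, which holds the outer TGGGAA of the printed sequence, had 5.46 in cluster 9, 0.828 in cluster 0, 0.826 in cluster 6 and 0 in cluster 10, where no insertion was seen. The Hes5 bin at -2550 bp had 4.90 in cluster 9 and 2.92 in cluster 6, from 53 insertions each, which is a smaller gap than at the start. In Notch1 the bin at 1450 bp had 4.16 in cluster 9 and 0.387 to 0.777 in clusters 0, 6 and 10. The Notch1 bin at 2850 bp had 5.36 in cluster 9, more than the 4.90 of the bin at the start, with 2.59 in cluster 6, 1.22 in cluster 0 and 0.777 in cluster 10. These profiles pool 2 libraries and carry no test.

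Each cluster was also set against the mean of the others. Cluster 9 had 8 of 10 members higher (8.70% of all genes were) and 0 lower (1.17%), all but Notch3 and Dll4, with Hes5 at a log2 difference of 2.47 ± 0.27 and Notch1 at 1.82 ± 0.17. The muscle-like cluster 10 had 5 higher (10.8% of all genes) and 0 lower (1.76%): Dll1 at 1.87 ± 0.23, Notch3 at 1.04 ± 0.19, Notch1 at 0.86 ± 0.21, Hes1 at 0.80 ± 0.21 and Notch2 at 0.74 ± 0.19. In cluster 0, Dll3 (1.86 ± 0.32) and Dll1 (0.93 ± 0.23) were higher (13.6% of all genes) and Hes1 was lower by 1.02 ± 0.21 on the log2 scale (4.99%). In cluster 6, Dll3 (2.16 ± 0.33), Dll1 (1.18 ± 0.25) and Hes5 (1.08 ± 0.32) were higher (9.46%) and Hes1 was lower (1.59%), at -0.74 ± 0.24. Dll1 and Dll3 were also higher in cluster 9, at 1.46 ± 0.23 and 1.48 ± 0.42.

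Cluster 7 had Hes1, Notch1 and Jag1 higher (3 of 10, against 6.23% of all genes, with 0 lower against 0.589%), cluster 8 had Notch1 and Hes1 higher (8.43%) and Notch3 lower (1.48%), and cluster 1 had Hes1 and Notch2 higher (8.69%) and 0 lower (1.60%). Cluster 3, whose nuclei were the deepest and had only 5.99% to 7.43% of fragments in promoter windows, had Notch1 and Notch3 higher (2 of 10, where 23.0% of all genes were). In the erythroid-like cluster 5, 0 of 10 were higher (11.8%) and Hes1, Jag1 and Hey1 were lower (5.62%), at -1.70 ± 0.28, -1.10 ± 0.21 and -1.01 ± 0.26. Cluster 11 had 0 higher (19.4%) and 7 lower (23.4%), from a single sum in which these 7 genes had 0 to 18 fragments each. That sum weighs on the mean of the others in every comparison of this kind. It is the only cluster 11 sum in the fit, so leaving out E13.5 also leaves out cluster 11. The effects of these changes cannot be told apart there. Without cluster 11, a setting added after seeing the data, cluster 9 had 7 higher, with Dll3 no longer among them (4.485% of all genes), cluster 10 had 3 (Notch3, Dll1 and Hes1, against 7.02%), and cluster 5 had 6 lower (18.5%). In cluster 0 Dll3 was then higher and Dll1 no longer (7.40%), with Notch1, Notch2 and Hes1 lower (4.02%), and in cluster 6 Dll1 and Dll3 were higher (4.54%) and Hes1 lower (1.15%). Fewer members were then higher in clusters 1, 3, 7 and 8, and more were lower in clusters 1 and 8. Their counts and shares are given in the section on processing. Without E13.5, cluster 9 had 2 higher (Notch1 and Hes5, against 1.13% of all genes), cluster 10 had Dll1 alone (1.71%), and cluster 0 kept Dll3 higher (2.44%) and Hes1 lower (0.484%). In clusters 1, 6, 7 and 8 no member passed without E13.5, where the share of all genes that passed in a given direction was at most 0.777%. No member was higher in cluster 3 then, where 0 genes in the whole table were, and in cluster 5 no member passed where 5.54% of all genes were higher and 4.91% lower. Without E15.5, no member was higher in clusters 1, 3 and 7, where 4.16%, 11.1% and 2.003% of all genes were.

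Other genes of the pathway were read from lists chosen with earlier results of these data known, and the shares of all genes to set beside their counts are the 1.69% higher and 0.635% lower by gene window. Of 4 other receptors and ligands (Notch4, Jag2, Dlk1 and Dner), 0 differed between cluster 9 and clusters 0 and 6, and Jag2 and Dner were at -0.44 ± 0.24 and -0.42 ± 0.18. Of 23 genes for processing and signalling, 2 were higher and 0 lower: Lfng, the Fringe enzyme that adds sugars to Notch and changes which ligands it answers, at 1.24 ± 0.22 (adjusted p 0.000797), and Maml2, a co-activator of the RBPJ complex, at 0.65 ± 0.17 (0.0316). Rbpj itself was at 0.03 ± 0.18. The median log2 change of these 23 was -0.055. Of 10 other targets and Hes or Hey relatives, 3 were higher and 0 lower, namely Nrarp, a target that feeds back on the pathway, at 1.29 ± 0.23, Heyl at 1.21 ± 0.31 and Dtx4 at 0.95 ± 0.22, and these 3 and Lfng also passed at their principal promoters, where 3.56% of all genes were higher. Of 7 proneural factors, which Hes proteins repress, Neurog1 (1.08 ± 0.29) and Neurog2 (0.91 ± 0.24) were higher in cluster 9 and 0 were lower, while Neurod4 was at -1.12 ± 0.49 without passing. By gene window none of these 7 genes (Lfng, Maml2, Nrarp, Heyl, Dtx4, Neurog1 and Neurog2) passed without E13.5, when 8 genes in the whole table were higher, and none passed without E15.5. Neurog1 did not pass without E12.5 either, at an adjusted p of 0.0515 in edgeR. All 7 kept their direction by gene window with E13.5 or E15.5 left out, which leaves cluster 6 a single sum. The log2 changes then ran from 0.44 for Maml2 to 1.545 for Nrarp without E13.5. Without E15.5 they ran from 0.67 for Dtx4 to 1.16 for Nrarp. At principal promoters Neurog1 (1.32 ± 0.29) and Neurog2 (1.22 ± 0.27) passed, and passed without E12.5 or without E15.5 but not without E13.5. There Lfng passed with any 1 library left out, from 1.45 ± 0.33 to 1.995 ± 0.42. The other 3 held less well at principal promoters. Dtx4 did not pass without E15.5 (0.70), Heyl without E12.5 (1.905) or E15.5 (2.01), and Nrarp without E13.5 (1.46) or E15.5 (0.86). Heyl was not among the genes tested there without E13.5.

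The levels of the 10 genes over the 19 sums of E13.5 and E15.5 were compared with all other genes by Pearson's r of log2(CPM + 1), as a description without a test, since the sums share 2 libraries and differ in depth. Notch1 was most like Fgfr3 (r = 0.965), a receptor of progenitors and growth plates, Prag1 (0.958) and Gstm7 (0.953). Hes5 was most like Fgf15 (0.911) and Kcnc2 (0.909). Dll3 was most like Prrt4 (0.972), Atp9a (0.969) and Zfp536 (0.967), and Dll1 was most like Wscd1 (0.929), Jam2 (0.917) and Nectin1 (0.914). Jag1 was most like Vim (0.904), an intermediate filament gene of progenitors and mesenchyme, then 1810010D01Rik (0.901) and Zfp105 (0.900), and Hes1 was most like Wwtr1 (0.871), Foxd2 (0.867) and Acvrl1 (0.848). Notch2 was most like 1810010D01Rik (0.940), Ccdc8 (0.939) and Vcam1 (0.937), and Notch3 like Myl1 (0.909), a muscle myosin gene, Ptprq (0.900) and Etnppl (0.899). Dll4 was most like Itgb1bp2 (0.946), Znrf4 (0.937) and Tmc7 (0.924), and Hey1 was the least matched, with AI464131 (0.824), Il11ra1 (0.823) and Tspyl2 (0.801). Among the members, the highest pairs were Notch1 with Notch2 (0.90), Notch1 with Dll1 (0.82) and Dll1 with Dll3 (0.81), and Hes1 with Hes5 was at 0.14. The 19 sums include the cluster 11 sum of E13.5, an extreme for several genes. There Notch1 was at 4.28 CPM, Notch2 at 38.5, Dll1 and Dll4 at 2.14 and Dll3 at 0, but Hes1 at 34.2 and Hey1 at 77.0. How far that sum sets these values of r was not tested.

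With 1 library per stage, the same cluster could be compared between stages only as 2 libraries, and intervals cover counting error only. In cluster 9, the E15.5 level over the E13.5 level was between 0.625 and 1.13 for the 10 genes. Only Notch3, at 0.729 (0.549 to 0.957), had an interval that excluded 1, where 12.3% of all genes lay above 1 and 11.5% below in this way. This was not particular to cluster 9. Of the 9 clusters compared, the Notch3 interval lay below 1 in 6 and above 1 in 1. The share of all genes below 1 ran from 10.4% in cluster 5 to 17.5% in cluster 7. At the principal promoter in cluster 9, Notch3 was at 0.98 (0.488 to 1.87). Notch1 was at 0.973 (0.865 to 1.09), Jag1 at 1.03 (0.837 to 1.27) and Hes5 at 1.13 (0.827 to 1.53). In cluster 6, Dll1 was at 0.486 (0.364 to 0.642), Dll3 at 0.711 (0.546 to 0.919), Notch3 at 0.761 and Jag1 at 0.783, and Hes5 was at 1.47 (1.02 to 2.10), while 12.53% of all genes lay above 1 and 11.6% below. In cluster 0, Notch1 was at 0.718 (0.642 to 0.803) and Hes1 at 0.665 (0.518 to 0.854), and Dll3 was at 1.30 (1.06 to 1.58) and Notch2 at 1.16 (1.04 to 1.29), where 14.9% of all genes lay above 1 and 15.2% below. The ratio of Dll3 lay on opposite sides of 1 in the 2 neuron-like clusters, a difference that was not tested. Counting error alone is not the spread between embryos, which these files cannot give.

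**Figure D3:**
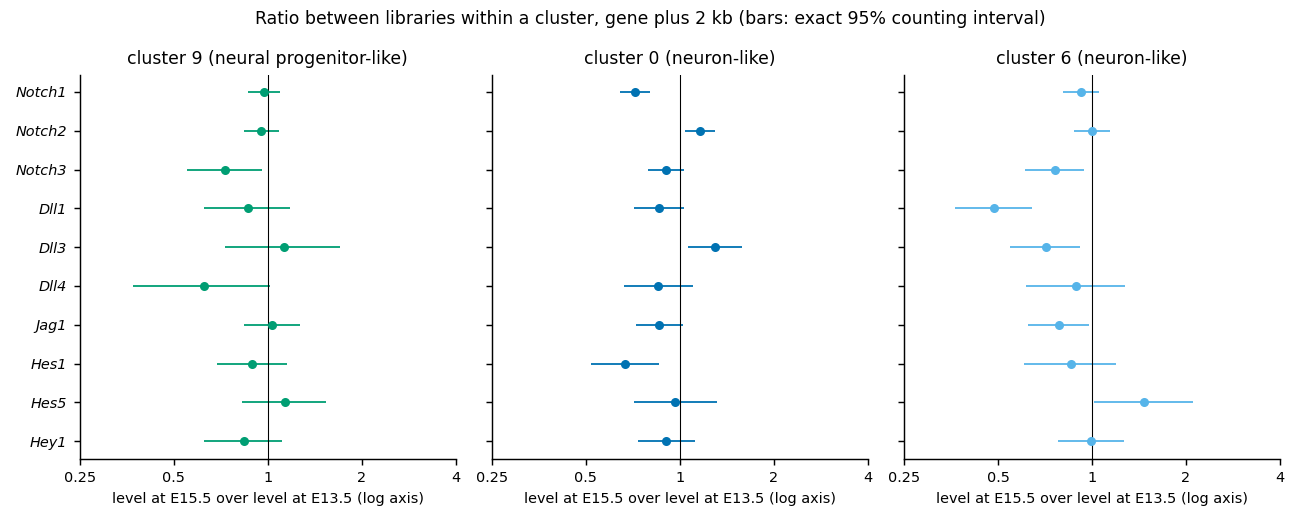
Level at E15.5 over level at E13.5 on a log axis for the 10 genes in clusters 9, 0 and 6, with exact 95% counting intervals. In cluster 9 the interval of Notch3 alone lies off 1, and in cluster 6 that of Notch3 lies below 1 too. In cluster 6 Dll1 is the lowest at 0.486, and in cluster 0 the intervals of Notch1 and Hes1 lie below 1.

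The last question was where, away from gene starts, the loci opened in a single cluster. In bins of 500 bp from 50 kb before to 50 kb after each gene, and over 1000 bp from any protein-coding start, E13.5 chose for each gene the bin with the largest ratio of its highest cluster to the median cluster (at least 20 fragments in that cluster, with a median of 0 set to 1 fragment in the median-depth cluster), and E15.5 was then read. Levels here are CPM of all unique fragments of the nuclei. Among the bins described here, the cluster that chose the bin was also the highest of 9 at E15.5 for Notch1, Notch2 and Hes5, with cluster 9, and for Dll1 and Jag1, with cluster 10. With E15.5 choosing and E13.5 read, the bin stayed the same only for Notch1 among the genes described here, and the choosing cluster was the highest at E13.5 for Notch1, Notch2, Hes5 and Dll4, each with cluster 9, and not for Notch3, Dll1, Dll3, Jag1 or Hes1.

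The Notch1 bin lies inside an intron 18071 bp from the principal start, at chr2:26485501-26486000. It had 62 fragments in cluster 9 at E13.5, by which it was chosen, and 30 at E15.5, a level of 20.2 (13.7 to 28.9), where cluster 0 had 2.13 (1.38 to 3.15) and cluster 10 had 0.490. E12.5 had 9 fragments in cluster 9, a level of 7.00, the highest of the clusters with at least 10 nuclei there. When E15.5 was used to choose in place of E13.5, the same bin came out. It holds none of the 3 motifs, and its middle 300 bases, chr2:26485601-26485900 on the plus strand, are given because both libraries chose this bin.
Notch1 intron: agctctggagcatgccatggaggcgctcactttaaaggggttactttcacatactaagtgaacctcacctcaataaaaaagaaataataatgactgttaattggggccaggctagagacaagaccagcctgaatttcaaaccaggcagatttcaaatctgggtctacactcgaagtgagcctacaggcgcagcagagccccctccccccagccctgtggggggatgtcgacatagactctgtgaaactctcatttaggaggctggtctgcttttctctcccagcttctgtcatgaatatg

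Upstream of Hes5, the bin at chr4:154952501-154953000, 8172 bp before the start and in no annotated gene, had 32 fragments in cluster 9 at E13.5 and 11 at E15.5, a level of 7.42 (3.70 to 13.3). Cluster 6 was next with 10 fragments and 3.21 (1.54 to 5.90), and these intervals overlap. With E15.5 choosing, the Hes5 bin was another, at -12172 bp, chosen by 22 fragments in cluster 9, which had 38 fragments and 10.7 times the median cluster at E13.5. With bins of 1000 bp, E13.5 chose yet another Hes5 bin, in cluster 5, at 33.55 times the median cluster at E15.5. Of the 2497 bins searched in these loci, 41.6% hold TGGGAA at least 1 time, 25.8% hold CAGCTG and 6.57% CACGTG. The bin 8172 bp before the start holds TGGGAA 2 times, but only 1 of them lies in its middle 300 bases. Its middle 300 bases, chr4:154952601-154952900 on the plus strand, are shown with these motifs in capitals so that they can be set beside the Hes5 promoter.
Hes5 upstream bin: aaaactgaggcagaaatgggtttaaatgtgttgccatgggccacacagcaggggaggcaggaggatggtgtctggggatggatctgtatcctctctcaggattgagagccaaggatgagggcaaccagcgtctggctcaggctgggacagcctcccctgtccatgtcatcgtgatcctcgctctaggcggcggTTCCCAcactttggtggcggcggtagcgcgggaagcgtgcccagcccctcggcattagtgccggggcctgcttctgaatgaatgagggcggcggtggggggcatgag

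The bins of Dll1 and Jag1 belonged to the muscle-like cluster when E13.5 chose, with bins of 500 or 1000 bp. With E15.5 choosing, the Dll1 bin was at -4775 bp in cluster 0, which was 1.33 times the median cluster and only rank 3 at E13.5, and the Jag1 bin was at 2393 bp in cluster 7, which was 1.08 times the median and rank 5. The Dll1 bin that E13.5 chose, at chr17:15329501-15330000, lies 46225 bp from the principal start past the end of the gene, in no annotated gene. It had 30 fragments in cluster 10 at E13.5 and 11 at E15.5, a level of 5.39 (2.69 to 9.64), and 0 fragments in cluster 9 in all 3 libraries. No other cluster with at least 10 nuclei was above 0.734 at E13.5 or E15.5. The bin of Jag1, at chr2:137101001-137101500, lies in an intron 15393 bp from the start and was at 5.87 (3.04 to 10.3) in cluster 10 at E15.5, from 12 fragments, with cluster 6 at 1.93 (0.707 to 4.19). It holds CAGCTG 4 times and TGGGAA once, while the Dll1 bin holds TGGGAA once and no CAGCTG. Their middle 300 bases (chr17:15329601-15329900 and chr2:137101101-137101400, plus strand) are shown for that contrast.
Dll1 distal bin: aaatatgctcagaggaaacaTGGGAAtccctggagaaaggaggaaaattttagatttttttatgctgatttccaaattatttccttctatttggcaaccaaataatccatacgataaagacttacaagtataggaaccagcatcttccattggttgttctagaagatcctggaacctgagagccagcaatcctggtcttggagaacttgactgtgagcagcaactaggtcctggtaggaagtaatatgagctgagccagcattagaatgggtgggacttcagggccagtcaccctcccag
Jag1 intron bin: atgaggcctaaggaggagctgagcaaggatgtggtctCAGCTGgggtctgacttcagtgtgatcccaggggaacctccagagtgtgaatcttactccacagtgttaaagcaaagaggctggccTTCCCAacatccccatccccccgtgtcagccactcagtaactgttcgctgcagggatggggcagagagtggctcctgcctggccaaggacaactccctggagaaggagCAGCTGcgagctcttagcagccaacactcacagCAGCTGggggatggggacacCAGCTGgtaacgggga

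For Notch2, Notch3, Dll3, Dll4 and Hes1 the choice held less well. The Notch2 bin, in an intron 25713 bp from the principal start, had 3 fragments and a level of 2.02 (0.417 to 5.91) in cluster 9 at E15.5. The Hes1 bin, 47911 bp past the start, had 21 fragments in cluster 8 at E13.5 and 3 at E15.5, where cluster 7 was higher. Bins for Dll3 and Dll4 had 5 and 1 fragments in their clusters at E15.5. The choosing cluster had 0 fragments in the library read for Dll3 with E15.5 choosing, and its level was 0 for Dll4 with bins of 1000 bp. The Notch3 bin was chosen by cluster 11, which at E15.5 had 71.1 (28.6 to 146) from 7 fragments in 7 nuclei. Among the clusters with at least 10 nuclei there, the erythroid-like cluster 5 was the highest, at 11.8 (4.33 to 25.7) from 6 fragments. That bin lies over an exon of Gm17276, 53101 bp from the Notch3 start and past the end of the gene.

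**Figure D4:**
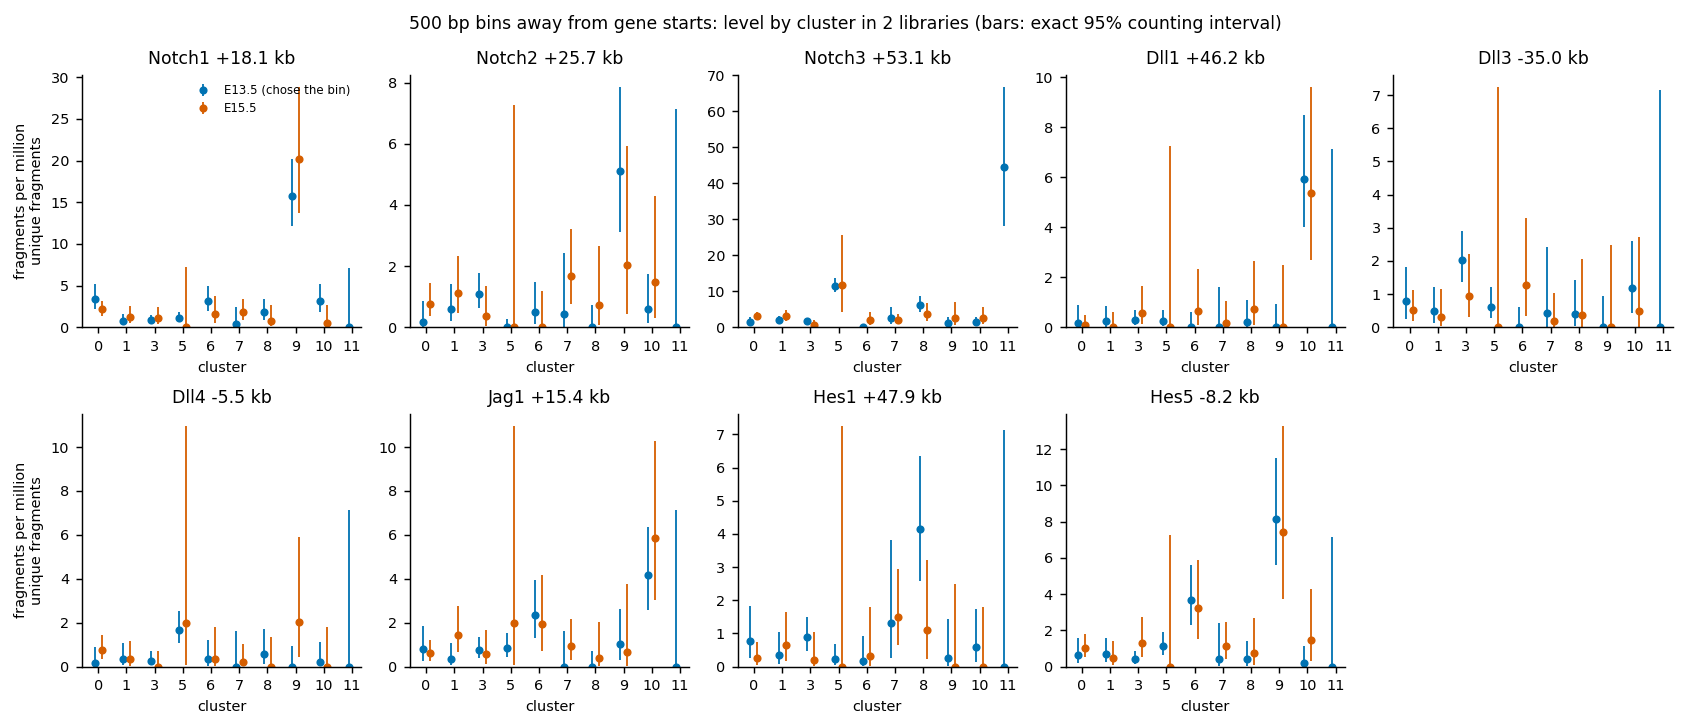
Level of the chosen 500 bp bin of 9 genes (CPM of unique fragments) by cluster at E13.5, which chose the bin, and at E15.5, with exact 95% Poisson intervals and the signed distance from the principal start in each title. In the E15.5 points cluster 9 stands highest for Notch1 and Hes5, and cluster 10 for Dll1 and Jag1.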

How the data were processed

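Nuclei of 3 libraries, 1 per stage (E12.5, E13.5, E15.5), were profiled by snATAC-seq. The authors ran Cell Ranger ATAC 2.0.0 on mm10 (per the file headers) and deposited unique fragments with their read counts, and a table of nuclei with cluster numbers. The study's methods describe clusters obtained after integrating these nuclei with its spatial profiles, and whether the deposited numbers are those clusters is not stated. In all, 20 columns of the table were not used. Libraries held 9402554 to 87687839 unique fragments and 153 to 970 nuclei.

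Fragments overlapping each protein-coding gene (GENCODE vM21 on GRCm38) and its 2000 bp upstream were counted per cluster and library, for sums of at least 10 nuclei, leaving out Pcdh and Ugt genes and genes spanning over 500000 bp. Promoters ran from 1000 bp before to 100 bp after the start. edgeR 4.0.16 in R 4.3.3 (quasi-likelihood, TMM, library as a block) was the test, with Benjamini-Hochberg adjustment over all genes and a threshold of 0.05, and DESeq2 1.42.0 was an alternative. The fit was tested on simulated data. P-values measure the spread between these sums. Intervals are exact at 95% and cover counting error only. Doublets were not removed. All 10 members are named, with other pathway genes that passed between cluster 9 and clusters 0 and 6 and the 3 genes most like each member. Jag2, Dner, Rbpj and Neurod4 were named after their values were seen. Some named genes and regions are not reported here. Members and lists were chosen with earlier results of these data known.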

Additional observations from a re-analysis of the deposited data

Results flagged for a closer look

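Fragments of the 10 genes also lay in nuclei and barcodes that no comparison used. Cluster 2 held 1107 of them, a level of 803 CPM, and cluster 4 held 75, a level of 722 CPM, beside 772 CPM in the 10 clusters compared. Barcodes outside the table of nuclei held 11330, where 74.4% to 91.5% of the fragments of a library lay in nuclei of the table. No control samples exist in this series, and each count is above the 3 counts that a count of 0 allows. Data of this size pass that limit in any case, so the flag sets these nuclei and barcodes apart in nothing.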

How the results depend on the processing

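Without 1 library, the members that differed between any clusters numbered 5 to 10 (with 11.98% to 62.7% of all genes in the same fits), those higher in cluster 9 than in clusters 0 and 6 numbered 1 to 6 by gene window (0.0426% to 1.88%), 2 to 5 by promoter at the gene start (0.969% to 3.17%) and 3 to 6 at the principal start (1.07% to 3.48%). Against the other clusters, the members higher numbered 1 to 2 in cluster 0 (2.44% to 13.57% of all genes), 0 to 3 in cluster 1 (0.601% to 9.16%), 0 to 1 in cluster 3 (0% to 21.8%), 0 to 4 in cluster 6 (0.351% to 11.1%), 0 to 4 in cluster 7 (0.356% to 7.73%), 0 to 2 in cluster 8 (0.777% to 9.79%), 2 to 7 in cluster 9 (1.13% to 8.71%), 1 to 5 in cluster 10 (1.71% to 12.31%) and 0 to 1 in cluster 11 (18.2% to 19.04%). Those lower numbered 0 to 1 in clusters 0 (0.484% to 4.71%), 6 (0% to 1.99%) and 8 (0.101% to 1.95%) and 0 to 3 in cluster 5 (2.88% to 6.56%). The low ends came without E13.5 or E15.5, the 2 larger libraries, except in cluster 11, where Hey1 was added without E12.5.

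Without cluster 11, chosen after seeing the data, the members higher numbered 1 in clusters 0 (7.40% of all genes), 1 (4.34%), 7 (2.28%) and 8 (6.475%), 0 in cluster 3 (8.02%) and 3 in cluster 10 (7.02%), and those lower numbered 3 in cluster 0 (4.02%), 1 in cluster 1 (1.73%), 6 in cluster 5 (18.5%) and 2 in cluster 8 (4.89%). With at least 20 nuclei per sum, cluster 3 had 1 higher (22.8%) and cluster 11 had 1 higher (19.3%). The promoter change of Dll1 between cluster 9 and clusters 0 and 6, -0.024 on the log2 scale at the gene start, turned to 0.19 with 1000 bp on both sides, to 0.27 at the principal start (added after seeing the data) and, with 1 library left out, ran from -0.17 to 0.074 (without E15.5). That of Notch1 at the gene start ran from -3.90 (without E13.5) to 0.49 and that of Dll3 from -0.70 to 0.26 (without E13.5), and none of these passed the test. The cause of these changes was not tested. DESeq2, other filters, linked barcodes, the deepest nuclei, Tn5 insertions and the left-out cluster 3 kept the counts between cluster 9 and clusters 0 and 6 within 1.5 times.

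No paired analysis was possible because each stage has 1 library, which is a block in every fit already. Depth limits E12.5 most, with 10 to 25 nuclei per sum.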
